A study of Mus musculus with 6 samples.

Results

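The 10 genes described here encode the main enzymes of bile acid synthesis, the nuclear receptors that control them, and transport and conjugation proteins of the same pathway. They are Cyp7a1, Cyp7b1, Cyp8b1, Cyp27a1, Nr0b2, Nr1h4, Nr5a2, Abcb11, Slc10a1 and Baat, taken from an array table in which 18193 genes had a probe set of their own. Members were all probe sets that the platform annotation assigned to exactly 1 of these symbols, which gave 19 of 45037 probe sets. The samples were 3 liver samples of C57BL/6 mice injected intravenously with an AAV8 vector expressing Nfkbiz, and 3 of mice given the same kind of vector expressing luciferase. AAV8 is an adeno-associated virus serotype that transduces mouse hepatocytes, and Nfkbiz encodes IκBζ, an atypical nuclear IκB protein. Both groups went onto CDAHFD, a choline-deficient high-fat diet that models nonalcoholic fatty liver disease, 4 weeks after the injection and stayed on it for 4 weeks, so no group without the vector or the diet was compared. Livers were perfused with PBS before RNA isolation. The labels number the samples within a group and do not say which animal each came from, so a liver below means 1 such sample. The sources used here do not give the vector's promoter, or the animals' age, sex, feeding state and time of day at sampling.

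Each sample was measured on 1 Affymetrix 3' expression array, and values are MAS5 signal intensities, a linear brightness per probe set, with nearly the same trimmed mean on every array. Nfkbiz probe set 1448728_a_at read 4424, 4073 and 2006 on the AAV8-Nfkbiz arrays, against 221.4, 229.5 and 179.7 on the AAV8-luciferase arrays, a 15.8-fold difference (limma adjusted p = 0.0009), and on the other 2 Nfkbiz probe sets the values of the groups overlapped. The third AAV8-luciferase array stood apart from the rest, at 76.1 on a second principal component where the other arrays lay between -22.8 and -8.47, so member differences whose call changes without it, and list medians that move with it, are given both ways. On the first component that array lay at 1.31, between the other AAV8-luciferase arrays (-53.2 and -35.6) and the AAV8-Nfkbiz arrays (14.5 to 56.4). The 9 measured hepatocyte markers summed to intensities between 285451 and 343620 in the AAV8-Nfkbiz livers and between 285332 and 330295 in the AAV8-luciferase livers. Alb and Ttr were among the bright ones, and Apoa1 was the brightest probe set of every array. The sum follows these bright markers and can hide changes in the dimmer ones. Array brightness does not compare levels between genes, and in whole liver fewer cells of a type and less RNA per cell cannot be told apart.

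Bile acids are made from cholesterol in hepatocytes. In the classic route CYP7A1 performs the first and rate-limiting step and CYP8B1 then adds the hydroxyl group that distinguishes cholic acid, while an alternative route runs through CYP27A1 and CYP7B1. Bile acids returning to the liver activate FXR, the product of Nr1h4, which induces Nr0b2; its product SHP is a repressor that acts on LRH-1, the product of Nr5a2, and so lowers Cyp7a1 and Cyp8b1. FXR also induces Abcb11, the bile salt export pump.

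The promoters of Abcb11 and Nr0b2 are shown because both genes are textbook targets of FXR and both read lower in the AAV8-Nfkbiz livers. Both sequences are RefSeq windows of GRCm38.p6, from 250 bases before the annotated start to 50 bases after it, written 5′ to 3′ on the gene's strand. In the Abcb11 window (chr2:69342567-69342866, minus strand) the capitals mark a match to the inverted repeat AGGNCANTGACCT, the form of element that FXR binds together with RXR. In the Nr0b2 window (chr4:133553126-133553425, plus strand) the capitals mark 2 matches to TCAAGG, the core of the element that LRH-1 binds.
Abcb11: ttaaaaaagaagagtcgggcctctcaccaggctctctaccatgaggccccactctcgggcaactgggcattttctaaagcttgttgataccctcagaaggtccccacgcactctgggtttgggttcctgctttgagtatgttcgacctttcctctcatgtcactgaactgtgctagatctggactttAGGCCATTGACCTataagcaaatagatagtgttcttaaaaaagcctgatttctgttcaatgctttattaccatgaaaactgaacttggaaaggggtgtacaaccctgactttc
Nr0b2: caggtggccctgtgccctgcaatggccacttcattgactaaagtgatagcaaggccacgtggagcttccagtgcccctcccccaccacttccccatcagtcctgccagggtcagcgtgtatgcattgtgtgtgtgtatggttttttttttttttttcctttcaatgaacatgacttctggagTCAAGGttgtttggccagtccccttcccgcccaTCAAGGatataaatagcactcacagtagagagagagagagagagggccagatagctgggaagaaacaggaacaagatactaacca
The Abcb11 match lay from 63 to 51 bases before the start, and the Nr0b2 matches lay from 68 to 63 and from 35 to 30 bases before it. Searched on both strands, the inverted repeat was present in 0.0365% of 32851 promoter windows and TCAAGG in 14.4%. Of the 7 member genes with a window, 1 held the inverted repeat (Abcb11) and 1 held TCAAGG (Nr0b2). The Nr0b2 window held no match to the inverted repeat or to AGGTCA. The inverted repeat and TCAAGG were both chosen after the windows had been read. The nuclear receptor core AGGTCA was found in windows of Nr5a2, Abcb11, Nr1h4 and Slc10a1, 4 of the 7 member genes with a window, and in 16.3% of all windows. These 7 genes had 9 windows, and for Nr5a2 and Slc10a1 the core was found in 1 window and absent from another. In Abcb11 it is the downstream arm of the inverted repeat, read on the opposite strand. The longer AAGGTCA was found in 0 of those 7 genes and in 4.72% of all windows. A match describes the letters and does not show binding.

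Across the pathway, the enzyme genes Cyp7a1 and Cyp7b1 had higher transcript intensities in the AAV8-Nfkbiz livers on each of their tested probe sets, while Nr0b2 and Abcb11 had lower ones. None of these differences passed the test over the whole array. After Benjamini-Hochberg adjustment over the 27022 probe sets bright enough to test, limma called 0 of the 17 tested member probe sets at 0.05, beside 0.0703% of all tested probe sets (0.0185% higher and 0.0518% lower). The smallest adjusted p among the members was 0.0912. At an unadjusted p below 0.05 there were 7 member probe sets, 4 higher and 3 lower, beside 10.6% of all tested probe sets (4.14% higher and 6.47% lower). Group values were fully separate for 8 of the 17, from 6 of the 10 genes, with 5 higher and 3 lower. Over all tested probe sets the share without overlap was 16.7%, 7.03% higher and 9.69% lower. The median log2 difference of the 17 was 0.12, beside -0.02 for all tested probe sets. Probe sets of 1 gene read the same transcripts, so the 17 are not independent.

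**Figure D1:**
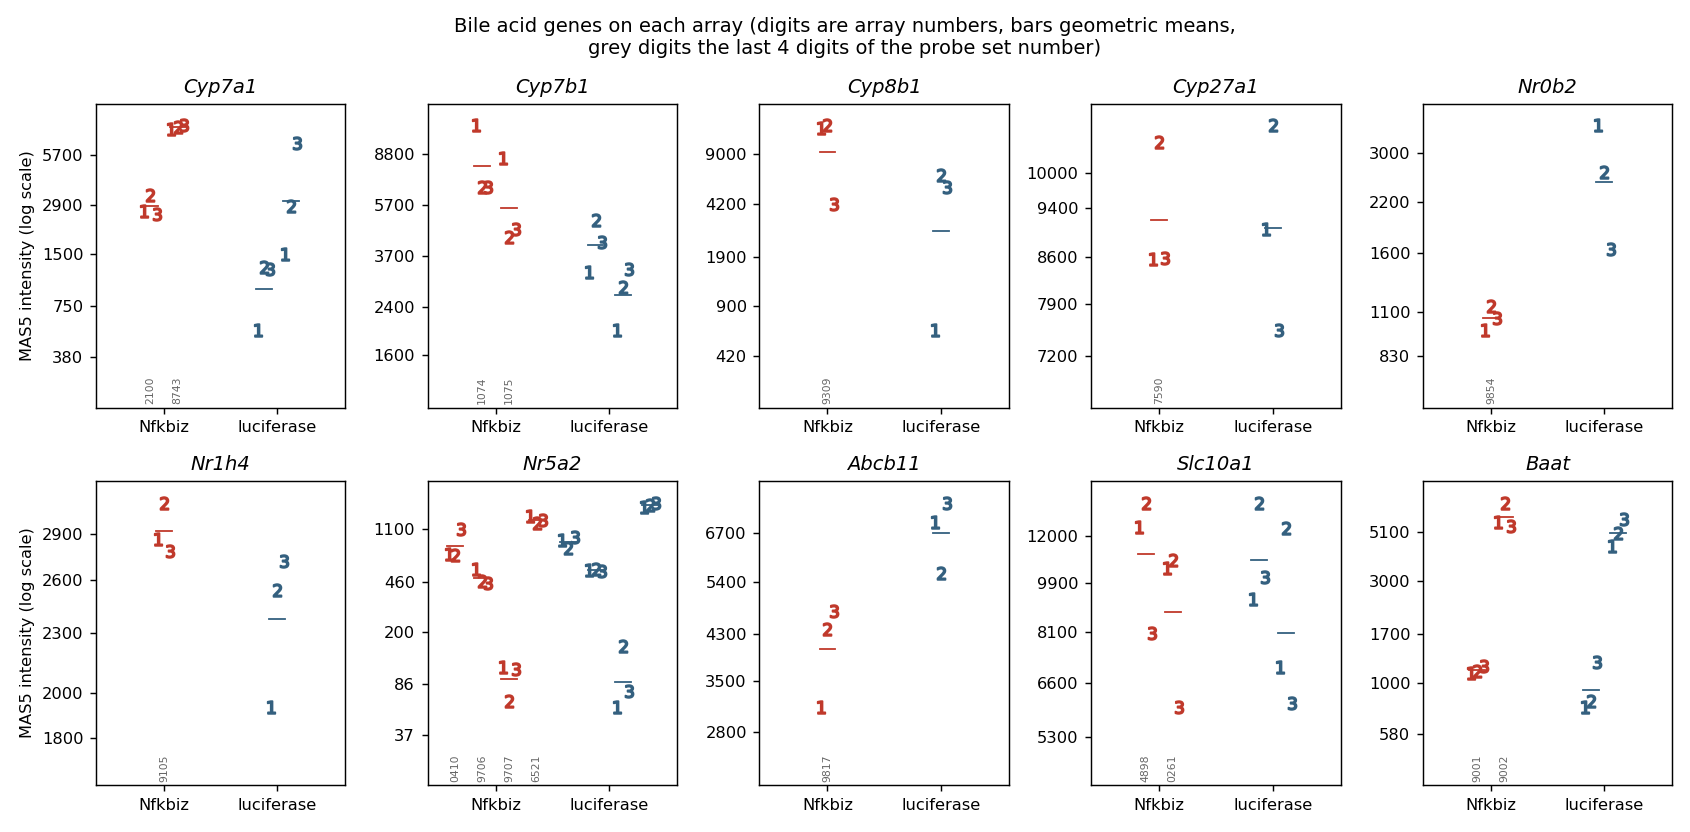
MAS5 intensity (log scale, a different range in each panel) of the 17 tested probe sets, with AAV8-Nfkbiz arrays in red on the left and AAV8-luciferase arrays in blue on the right of each panel. Digits are array numbers, short bars are geometric means of 3 arrays, and the small grey digits end the probe set's number; Nr0b2 lies between 981.9 and 1144 in the AAV8-Nfkbiz livers, below all 3 AAV8-luciferase livers.

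Cyp7a1, the gene of cholesterol 7α-hydroxylase, was read by 2 probe sets, and both separated the groups. Probe set 1422100_at read 2700.3, 3342 and 2585.5 in the AAV8-Nfkbiz livers, against 545.7, 1259 and 1240.5 in the AAV8-luciferase livers. All 3 AAV8-Nfkbiz values lay far above the highest AAV8-luciferase value. The geometric means differed 3.01-fold, or 1.59 ± 0.29 on the log2 scale (SE, limma adjusted p = 0.0912). Probe set 1438743_at read 8072, 8263 and 8499.5 in the AAV8-Nfkbiz livers and 1516, 2868 and 6679 in the AAV8-luciferase livers. The AAV8-Nfkbiz values lay close together there, while the AAV8-luciferase values spread widely, with the third array nearest to the other group. The log2 difference was 1.43 ± 0.41 (SE, limma adjusted p = 0.275), and without the third AAV8-luciferase array it was 1.99 and passed (limma adjusted p = 0.0177). With any other single array left out, its limma adjusted p lay between 0.390 and 0.580. For 1422100_at the difference without that array was 1.79 (limma adjusted p = 0.0732).

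Cyp7b1, the oxysterol 7α-hydroxylase gene of the alternative route, likewise read higher in each AAV8-Nfkbiz liver than in any AAV8-luciferase liver on both tested probe sets. Its probe set 1421074_at read 11236, 6675 and 6639 in the AAV8-Nfkbiz livers, against 3240.4, 5015.5 and 4158 in the AAV8-luciferase livers. The first AAV8-Nfkbiz array stood above the other two, and the lowest AAV8-Nfkbiz value exceeded the highest AAV8-luciferase value. The log2 difference was 0.96 ± 0.22 (SE, limma adjusted p = 0.207). Probe set 1421075_s_at, whose suffix marks probes that can match more than 1 transcript, read 8486, 4344 and 4657 in the AAV8-Nfkbiz livers, against 1985.5, 2859.9 and 3311 in the AAV8-luciferase livers. It differed by 1.06 ± 0.26 on the log2 scale (limma adjusted p = 0.238). Both probe sets had the first AAV8-Nfkbiz array highest and the first AAV8-luciferase array lowest. The remaining probe set, 1446995_at, was below the intensity filter, at up to 45.5 in the AAV8-Nfkbiz livers and up to 51.4 in the AAV8-luciferase livers.

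Cyp8b1, the sterol 12α-hydroxylase gene, had the widest spread within each group on the log2 scale among the tested probe sets. Its probe set 1449309_at read 13367, 13933 and 4204 in the AAV8-Nfkbiz livers, against 627.2, 6517 and 5457 in the AAV8-luciferase livers. The groups overlapped, since the third AAV8-Nfkbiz array lay below the second and the third AAV8-luciferase arrays. The log2 difference of 1.71 ± 0.78 (SE, limma adjusted p = 0.475) rested in large part on the first AAV8-luciferase array and was 0.63 without it. Leaving out any other single array gave between 1.41 and 2.32. On 1448728_a_at of Nfkbiz the third AAV8-Nfkbiz array, the low one for Cyp8b1, was also the lowest of its group. On the same array Cyp7a1 was the lowest of its group on 1422100_at (2585.5) and the highest on 1438743_at (8499.5). These orders among 3 arrays were not tested.

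Cyp27a1, the mitochondrial sterol 27-hydroxylase gene that opens the alternative route, did not separate the groups. Probe set 1417590_at read 8569, 10568 and 8588 in the AAV8-Nfkbiz livers and 9049.6, 10898 and 7549 in the AAV8-luciferase livers, with the AAV8-Nfkbiz values lying inside the AAV8-luciferase range. The log2 difference was 0.02 ± 0.16 (SE, limma adjusted p = 0.973), and its sign turned with quantile normalization, with array weights and when either of 2 arrays was left out. Its other probe set, 1457665_x_at, was below the filter, at up to 40.5 in the AAV8-Nfkbiz livers and up to 31.6 in the AAV8-luciferase livers.

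**Figure D2:**
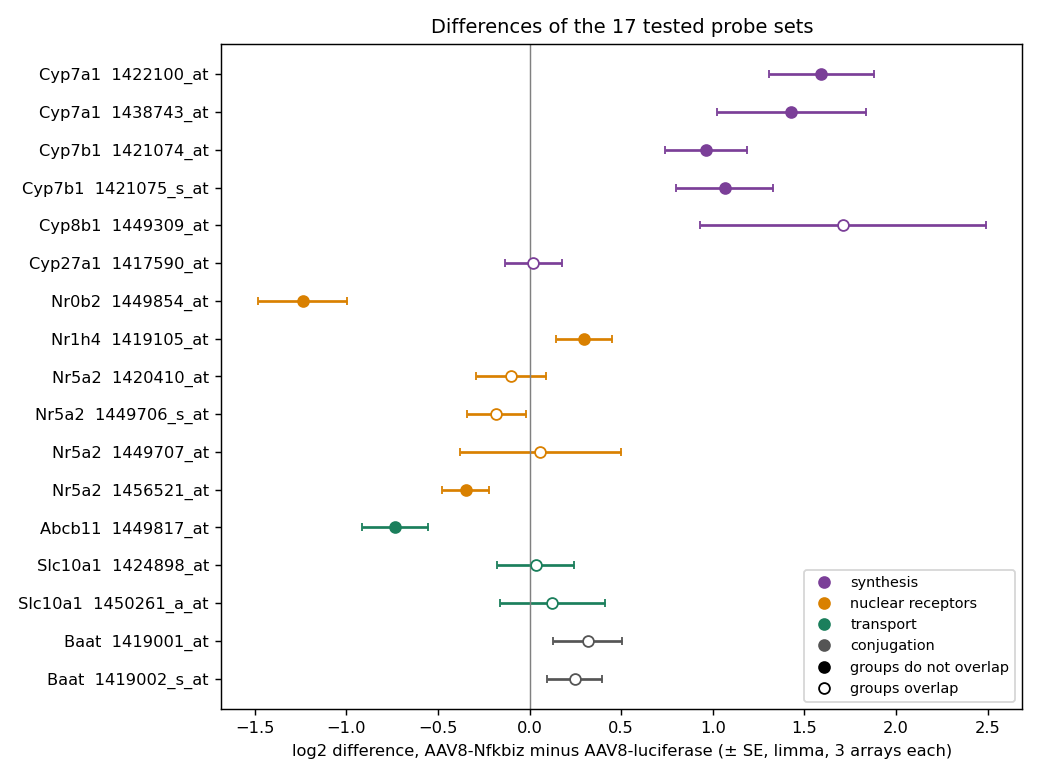
Log2 differences (AAV8-Nfkbiz minus AAV8-luciferase, 3 arrays each) with limma standard errors for the 17 tested probe sets, coloured by role, with filled circles where the arrays of the groups do not overlap. The probe sets of Cyp7a1 and Cyp7b1 lie between 0.96 and 1.59, Cyp8b1 at 1.71 has the longest error bar, and Nr0b2 at -1.24 and Abcb11 at -0.74 lie furthest to the left.

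Among the nuclear receptor genes, Nr0b2 had the largest difference. SHP, its product, lacks a DNA-binding domain and represses other receptors. Probe set 1449854_at read 981.9, 1144 and 1057 in the AAV8-Nfkbiz livers, against 3586, 2666 and 1635 in the AAV8-luciferase livers. The AAV8-Nfkbiz livers lay within a narrow range below all AAV8-luciferase livers. On the log2 scale it read -1.24 ± 0.24 (SE, limma adjusted p = 0.133), or 2.36-fold lower in the AAV8-Nfkbiz livers. Without the third AAV8-luciferase array, the lowest of its group for Nr0b2, the difference was -1.55 and passed (limma adjusted p = 0.0127), and with array weights it was -1.39 and passed (limma adjusted p = 0.0274). With any other single array left out, the limma adjusted p of Nr0b2 lay between 0.250 and 0.375.

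Nr1h4, the FXR gene, differed little. Its probe set 1419105_at read 2861, 3118 and 2783 in the AAV8-Nfkbiz livers and 1936, 2541 and 2724 in the AAV8-luciferase livers. The groups did not overlap, by the narrow gap between the third arrays of each. The log2 difference was 0.30 ± 0.15 (SE, limma adjusted p = 0.524), in the opposite direction to its target Nr0b2, and was 0.15 without the first AAV8-luciferase array.

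Nr5a2, the LRH-1 gene, had 4 tested probe sets, which did not give 1 direction. The brightest, 1456521_at, read 1372, 1217 and 1267 in the AAV8-Nfkbiz livers, against 1574, 1630.5 and 1699 in the AAV8-luciferase livers. These values did not overlap and were tight within each group, and the log2 difference was -0.35 ± 0.13 (SE, limma adjusted p = 0.394). Probe sets 1420410_at and 1449706_s_at overlapped between the groups, with log2 differences of -0.10 ± 0.19 and -0.18 ± 0.16. The dimmest, 1449707_at, ranged from 64.9 to 112.6 in the AAV8-Nfkbiz livers and from 58.4 to 158.8 in the AAV8-luciferase livers, with a difference of 0.06 ± 0.44.

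Cyp7a1 and Nr0b2 could be set beside each other array by array. Among the AAV8-luciferase livers, the first array had the highest Nr0b2 intensity (3586). It had the lowest Cyp7a1 intensity of that group on both probe sets, and the lowest Cyp8b1 intensity. Its low values were not limited to Cyp7a1 and Cyp8b1. It was also lowest for Cyp7b1, Nr1h4 and Baat on every tested probe set, and for Slc10a1 on 1424898_at. It was not lowest for Slc10a1 on 1450261_a_at, Cyp27a1 or Abcb11, and the Nr5a2 probe sets were mixed. Its sums were lowest for hepatocyte markers (285332) and other synthesis enzymes (151296), and highest for stellate cell markers (46160). The third AAV8-luciferase array had the lowest Nr0b2 intensity of that group and the highest Cyp7a1 intensity on 1438743_at, and on 1422100_at its value was close to that of the second array. Among the AAV8-Nfkbiz livers Nr0b2 and Cyp7a1 both varied little, and the second, with the highest Nr0b2 intensity, also had the highest Cyp7a1 intensity on 1422100_at. These are orders among 3 arrays per group and were not tested.

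**Figure D3:**
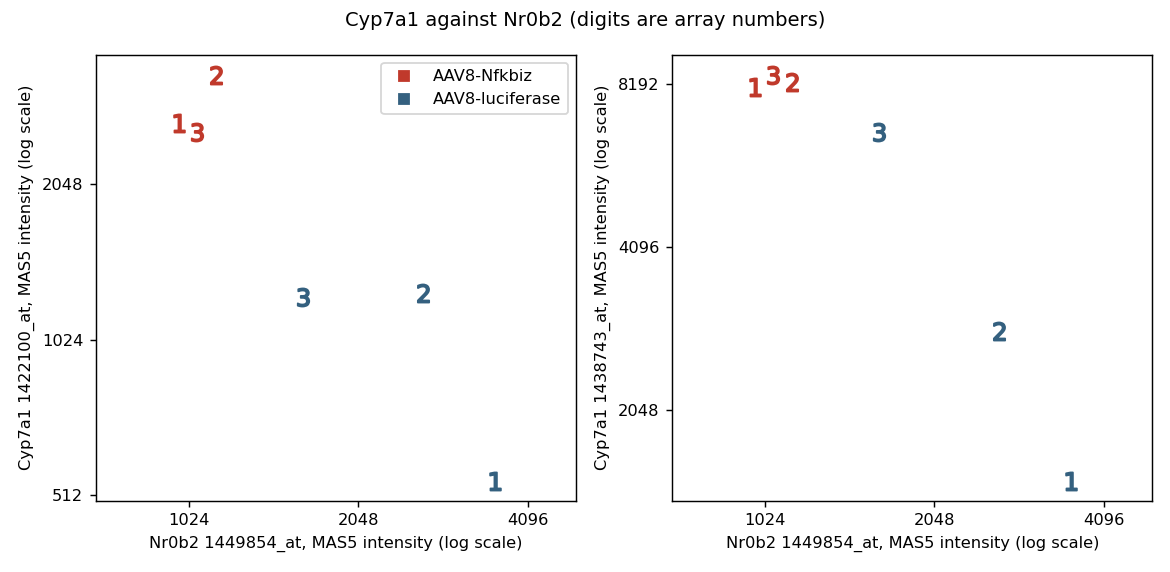
Cyp7a1 intensity on 1422100_at (left) and 1438743_at (right) against Nr0b2 intensity on 1449854_at, both on log scales, with digits for array numbers, AAV8-Nfkbiz in red and AAV8-luciferase in blue. The 3 AAV8-Nfkbiz livers sit together at the upper left, and the first AAV8-luciferase liver lies at the lower right with 3586 for Nr0b2.

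Of the transport genes, Abcb11 separated the groups and Slc10a1 did not. Abcb11, the canalicular bile salt export pump gene, read 3122, 4393 and 4748 on 1449817_at in the AAV8-Nfkbiz livers, against 7017, 5613.5 and 7640.2 in the AAV8-luciferase livers. Every AAV8-Nfkbiz value lay below every AAV8-luciferase value, and the geometric mean was 1.67-fold lower (-0.74 ± 0.18 SE on the log2 scale, limma adjusted p = 0.235). Slc10a1 encodes NTCP, which takes up bile salts from the sinusoidal blood. Its probe set 1424898_at read 12406, 13730.4 and 8078 in the AAV8-Nfkbiz livers and 9280.3, 13680.3 and 10122 in the AAV8-luciferase livers. The second arrays of both groups were the highest and the third AAV8-Nfkbiz array the lowest, so the spread within groups exceeded the difference of 0.03 ± 0.21. Probe set 1450261_a_at gave 0.12 ± 0.29, and both signs turned when single arrays were left out.

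Baat encodes the enzyme that joins bile acids to taurine or glycine. Its probe set 1419002_s_at read 5660.1, 6979 and 5445 in the AAV8-Nfkbiz livers, against 4376, 5039.6 and 5847 in the AAV8-luciferase livers, with overlap between the groups. Probe set 1419001_at read 1124.5, 1147 and 1204 in the AAV8-Nfkbiz livers, against 775.3, 824.5 and 1257 in the AAV8-luciferase livers, also with overlap. The log2 difference was 0.25 ± 0.15 on 1419002_s_at and 0.32 ± 0.19 on 1419001_at (SE, limma adjusted p = 0.594 and 0.586). On both probe sets the third AAV8-luciferase array was the highest of its group, and without it the differences were 0.35 and 0.53.

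**Figure D4:**
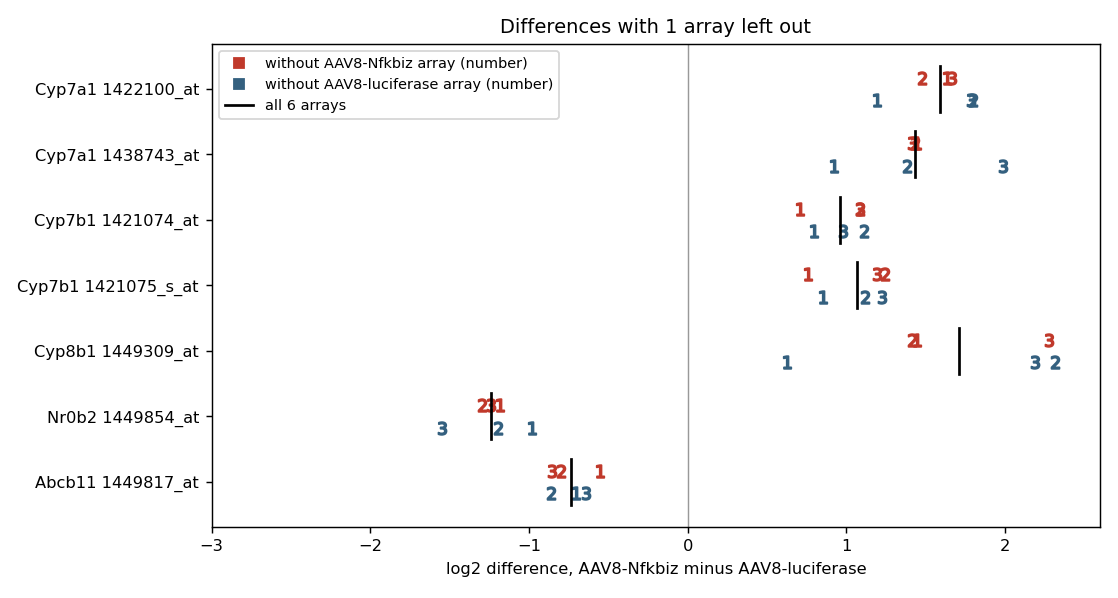
Log2 differences of 7 probe sets with all 6 arrays (black bars) and with 1 array left out (digits give its number, red for an AAV8-Nfkbiz array, in the upper row of each gene, and blue for an AAV8-luciferase array). No difference shown changes sign; Cyp8b1 drops to 0.63 without the first AAV8-luciferase array, and Cyp7a1 on 1438743_at is 0.92 without the first and 1.99 without the third.

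Other enzymes of bile acid synthesis and conjugation, each represented by its brightest probe set, lay near 0. Of 13 tested, 0 passed limma's adjusted test and 0 had an unadjusted p below 0.05, the groups overlapped for all 13, and their median log2 difference was 0.08, where the median of all tested probe sets was -0.02 and 47% were above 0. Hsd3b7, which acts after CYP7A1, had a difference of 0.29 ± 0.16 (SE). Akr1d1, the steroid 5β-reductase gene, had -0.23 ± 0.22. The peroxisomal genes Acox2 and Acot8 had 0.14 ± 0.14 and 0.16 ± 0.18. Cyp46a1 and Star were below the intensity filter.

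Transporters of bile acids and bile lipids read mostly lower in the AAV8-Nfkbiz livers, without passing the adjusted test. Of 16 tested, 14 had a negative difference, 8 of them with an unadjusted p below 0.05 (6.47% of all tested probe sets), and 1 of the 2 with a positive difference had such a p (4.14%). For 7 of the 16 the groups did not overlap, all lower, beside 9.69% of all tested probe sets. The median log2 difference was -0.42, and -0.42 again without the third AAV8-luciferase array. Abcb1a, a multidrug export pump gene, read 280.4, 249.2 and 452.1 in the AAV8-Nfkbiz livers, against 925.3, 561.0 and 713.6 in the AAV8-luciferase livers. None of its AAV8-Nfkbiz values reached the lowest AAV8-luciferase value (-1.18 ± 0.26 SE, limma adjusted p = 0.171). The basolateral exporter gene Abcc3 had a difference of -0.41 ± 0.12, the canalicular exporter gene Abcc2 of -0.44 ± 0.13, and the sterol transporter gene Abcg8 of -0.53 ± 0.19, each without overlap and none with a limma adjusted p under that of Abcc3 (0.291). Abcb4, the canalicular phosphatidylcholine transporter gene and a known FXR target, had -0.33 ± 0.14.

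Regulators of the pathway gave 0 of 15 past limma's adjusted test and 5 with an unadjusted p below 0.05, all 5 lower, beside 6.47% of all tested probe sets. The groups did not overlap for 1 higher and 4 lower, beside 7.03% and 9.69% of all tested probe sets, with a median log2 difference of -0.11 (-0.21 without the third AAV8-luciferase array). Ppargc1a, the PGC-1α coactivator gene, read 405.4, 279.8 and 327.3 in the AAV8-Nfkbiz livers, against 723.0, 994.3 and 678.0 in the AAV8-luciferase livers. It did not overlap between the groups (-1.24 ± 0.21 SE, limma adjusted p = 0.0759), and it passed when each gene was represented by 1 probe set (limma adjusted p = 0.0449). Nr1i2, the xenobiotic receptor PXR gene, had a difference of -0.65 ± 0.17. Mafg, a repressor gene induced by FXR, had -0.65 ± 0.19, and without the third AAV8-luciferase array it had -0.88 and passed (limma adjusted p = 0.0440). Rxra, the gene of the receptor that pairs with FXR, had -0.40 ± 0.16, and none of these 3 overlapped between the groups (limma adjusted p = 0.254, 0.294 and 0.431). Fgfr4 and Klb, whose products receive the intestinal hormone FGF15, lay at 0.03 ± 0.17 and 0.02 ± 0.24, and Fgf15 was below the filter in these livers.

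**Figure D5:**
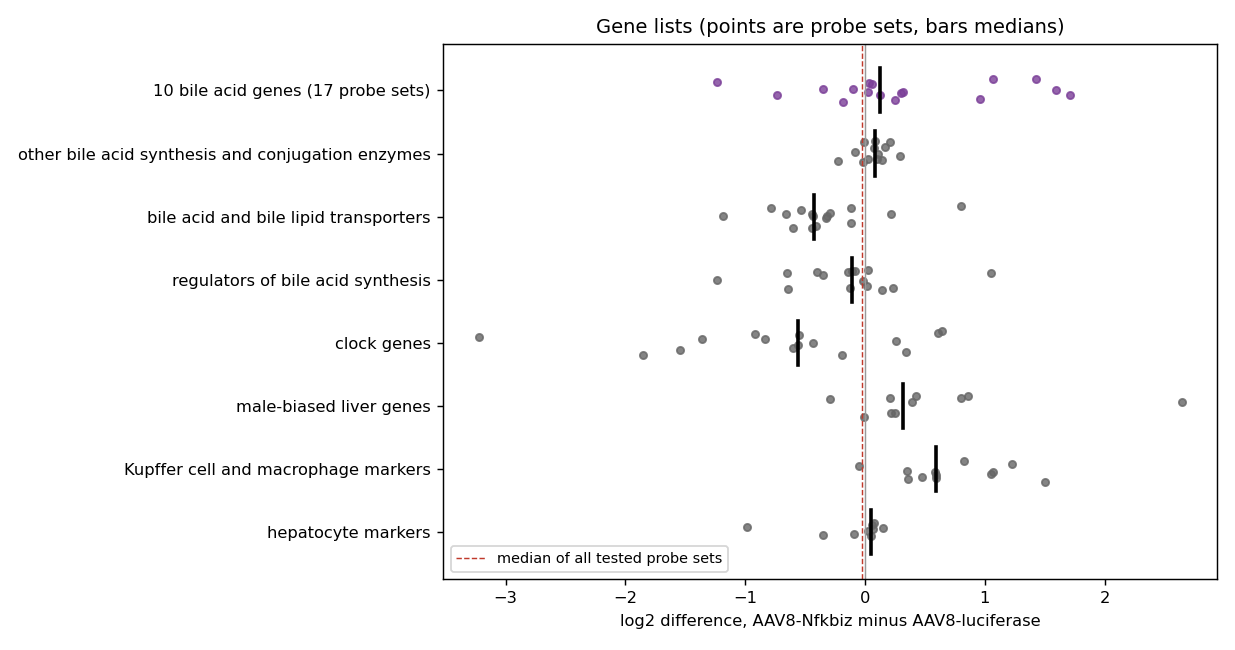
Log2 differences (AAV8-Nfkbiz minus AAV8-luciferase) of the bile acid probe sets and of 7 gene lists, with 1 point per probe set, black bars for list medians and a dashed line at the median of all tested probe sets (-0.02). The transporter list lies to the left with a median of -0.42, the other synthesis enzymes lie near 0, and the clock genes and Kupffer cell markers lie on opposite sides at -0.56 and 0.59.

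Cyp7a1, Cyp8b1 and Nr0b2 are known to be rhythmic in mouse liver. Of 15 tested clock genes 11 had a negative difference and 4 a positive one, and 1 passed, Usp2, a clock-controlled deubiquitinase gene, which fell (-1.85 ± 0.16 SE, limma adjusted p = 0.00369) and passed with any 1 array left out. The list's median was -0.56, with 9 lower and 2 higher without overlap (9.69% and 7.03% of all tested probe sets), and its summed intensity ran from 11181 to 13648 in the AAV8-Nfkbiz livers and from 19906 to 20390 in the AAV8-luciferase livers. Per1, Ciart and Per2 had differences of -1.36 ± 0.21, -3.22 ± 0.55 and -0.92 ± 0.20 (limma adjusted p = 0.0604, 0.0844 and 0.169), and Per1 passed with 1 probe set per gene (limma adjusted p = 0.0329). Dbp, a clock-controlled activator of Cyp7a1, read 1682, 631.7 and 1439.5 in the AAV8-Nfkbiz livers, against 4069, 2139.6 and 4343 in the AAV8-luciferase livers. All 3 AAV8-Nfkbiz values of Dbp lay below its lowest AAV8-luciferase value. The 2 clock genes that read higher without overlap were Clock and Nfil3, with log2 differences of 0.65 ± 0.22 and 0.34 ± 0.15. The part of sampling time in the bile acid values was not tested.

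Cyp7b1 is male-biased in mouse liver. Of 10 tested male-biased genes 0 passed limma's adjusted test and 3 had an unadjusted p below 0.05, all higher (4.14% of all tested probe sets). The median was 0.32, or 0.48 without the third AAV8-luciferase array, and the sum of the list ran from 43075 to 57428 in the AAV8-Nfkbiz livers and from 33548 to 56809 in the AAV8-luciferase livers. Hsd3b5, a steroid-metabolizing enzyme gene, had the largest difference of the 4 with the smallest p (2.65 ± 0.47 SE, limma adjusted p = 0.0844), ahead of Serpina12, Slco1a1 and Cyp4a12a at 0.86 ± 0.25, 0.80 ± 0.29 and 0.42 ± 0.21. Slco1a1 also belongs to the transporter list and was already counted there as higher. Without the third AAV8-Nfkbiz array Hsd3b5 had 3.22 and passed (limma adjusted p = 0.0237). Of 6 tested female-biased genes, 0 passed the adjusted test and 2 had an unadjusted p below 0.05, beside 10.6% of all tested probe sets. These were Acot3 at 1.12 ± 0.32 and Fmo2 at -0.68 ± 0.27, 1 in each direction (4.14% higher and 6.47% lower of all tested probe sets). The median of the female-biased list was -0.24, or -0.09 without the third AAV8-luciferase array. The part of sex-biased expression in the Cyp7b1 values was not tested.

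Among markers of other liver cells, those of Kupffer cells and macrophages read higher in the AAV8-Nfkbiz livers. Of 12 tested, 0 passed limma's adjusted test, 9 had an unadjusted p below 0.05, all higher, and 8 did not overlap, beside 4.14% and 7.03% of all tested probe sets. Their summed intensity ran from 58220 to 74630 in the AAV8-Nfkbiz livers and from 39750 to 54238 in the AAV8-luciferase livers, and their median was 0.59, or 0.39 without the third AAV8-luciferase array. The adjusted test was passed by 0 of 6 cholangiocyte, 0 of 10 stellate cell, 0 of 10 endothelial, 0 of 8 T and NK cell and 0 of 5 B cell markers, and an unadjusted p below 0.05 was found for 1, 2, 1, 3 and 1 of them, beside 10.6% of all tested probe sets. Of the 8 T and NK cell markers 5 had a positive difference and 3 a negative one. Gzma, a cytotoxic granule protease gene, had 1.77 ± 0.29 (limma adjusted p = 0.0670) and passed with 1 probe set per gene (limma adjusted p = 0.0427). Summed T and NK cell markers ran from 1741 to 3183 in the AAV8-Nfkbiz livers and from 1297 to 1569 in the AAV8-luciferase livers. The brightest of them, Ccl5, read 1706.9, 919.0 and 769.6 in the AAV8-Nfkbiz livers, against 603.5, 722.4 and 703.3 in the AAV8-luciferase livers. The summed ranges of the other 4 lists overlapped between the groups. For stellate cell markers the sums were 24566, 27590 and 33277 in the AAV8-Nfkbiz livers and 46160, 33805 and 23780 in the AAV8-luciferase livers, so the overlap came from the third AAV8-luciferase array. Without that array the median was -0.66 for stellate cell markers (-0.34 with it), -0.18 for endothelial (0.17), -0.39 for cholangiocyte (0.08), 0.11 for B cell (0.36) and 0.63 for T and NK cell markers (0.53). Krt7, Cftr and Muc1 of the cholangiocyte list, Cd4 of the T cell list, and Fgf15, Fabp6, Vil1 and Lct of an ileal enterocyte list were below the intensity filter. Of the remaining 2 ileal enterocyte genes 0 passed the adjusted test, and so did 0 of the 9 hepatocyte markers. In each list 1 gene, Slc10a2 and Hnf4a, was lower at an unadjusted p below 0.05, beside 6.47% of all tested probe sets. Both were already counted above, Slc10a2 among the transporters and Hnf4a among the regulators. Ass1 had the dimmest probe set of the 9 hepatocyte markers. It read 115.1, 177.8 and 134.8 in the AAV8-Nfkbiz livers, against 583.6, 608.2 and 60.5 in the AAV8-luciferase livers. With all arrays its difference was -0.99 ± 0.73 (SE, limma adjusted p = 0.661), with overlap between the groups. Without the third AAV8-luciferase array, which lay below every AAV8-Nfkbiz value of Ass1, it had -2.09 and passed (limma adjusted p = 0.0177). No other hepatocyte marker passed without that array. The part of cell makeup in the bile acid values was not tested.

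The probe sets with the most similar profile were found by the root mean square distance of centred log2 intensities over the 6 arrays. Cyp7a1, Cyp7b1, Cyp8b1 and Nr0b2 were each represented by their brightest probe set. Every other gene was represented by its nearest tested probe set with 1 symbol, which need not be its brightest. For Cyp7a1 the nearest probe sets belonged to 6820408C15Rik and Elavl2, at 0.25 each. For Cyp7b1 they belonged to Smyd1 (0.15) and H2-DMb2 (0.15), and for Cyp8b1 to Smyd4 and Cxcl13 (0.49 each). For Nr0b2 they belonged to Marchf7 (0.12) and Trpm7 (0.19). With 6 arrays and many probe sets searched, such neighbours describe these arrays only. The limma adjusted p of these 8 probe sets lay between 0.291 and 0.614.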

How the data were processed

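The table holds MAS5 signal intensities on a linear scale that the authors deposited, 1 array per sample, per the submitters' processing notes, which give no MAS5 version. Trimmed mean intensity per array, without the outer tails, was 495.4 to 496.5. Of 45037 probe sets, 34945 had 1 gene symbol in the platform annotation, 932 several, and 9160 are unnamed here. Control probe sets are not analysed here. Tests used log2 of the intensity as deposited, without a pseudocount or another normalization. The 60% of probe sets with the highest mean log2 intensity (a geometric mean of at least 47.4) were tested with limma 3.58.1 in R 4.3.3 (lmFit, then eBayes with trend), as AAV8-Nfkbiz minus AAV8-luciferase, two-sided, with Benjamini-Hochberg adjustment over all 27022 and a threshold of 0.05. In the lists a gene's brightest probe set stands for it. SE is limma's moderated standard error.

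The labels give separate samples and do not state separate animals, so p-values reflect the spread among these samples, which may be technical. The number of arrays limits the precision. The test was checked on simulated data. Members, lists and motifs were chosen with earlier results of these data known. The rule for named genes took all members, Nfkbiz, up to 4 genes per list with the smallest p, and the 2 nearest profiles of Cyp7a1, Cyp7b1, Cyp8b1 and Nr0b2. Dbp, Ass1, Abcb4, Fgfr4, Klb, Alb, Ttr, genes below the filter and the inverted repeat and TCAAGG motifs were chosen after their values or sequences were seen. The alternatives were no or a stricter filter, quantile normalization, median centring, a pseudocount of 16, no intensity trend, array weights, 1 probe set per gene, a replicate block and leaving out each array. Figures were drawn with matplotlib 3.10.9.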

Additional observations from a re-analysis of the deposited data

How the results depend on the processing

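With 3 arrays a group, the test over all probe sets called 5 higher and 14 lower, of which 0 were members. Members called became 1 with array weights (Nr0b2) and ranged from 0 to 2 when 1 array was left out, the 2 being Cyp7a1 on 1438743_at and Nr0b2 without the third AAV8-luciferase array. Over all probe sets the calls were 12 higher and 34 lower with the stricter filter, 20 and 57 with array weights, 0 and 0 without the intensity trend, 9 and 21 with 1 probe set per gene, 7 and 22 with quantile normalization, 7 and 9 with median centring, 6 and 22 with the pseudocount, 6 and 22 with the replicate block, and 5 and 12 without a filter. With 1 array left out they ran from 3 to 12 higher and from 5 to 21 lower. The replicate block changed no member's call. The labels do not say that a number marks a shared animal, litter or day, so the numbers were not taken to pair the arrays. Deviations of same-numbered arrays from their group means correlated at -0.03, 0.07 and 0.01. Those of unlike-numbered arrays correlated between -0.10 and 0.09.

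Of 247 member differences recomputed, 224 kept direction and side of the threshold, 3 passed it and 20 turned in sign, all 20 among probe sets whose difference with all arrays was at most 0.12 in size. Cyp27a1 was -0.051 with quantile normalization and -0.10 with array weights, and ran from -0.11 to 0.15 with 1 array left out. Slc10a1 on 1424898_at was -0.053 with quantile normalization and -0.054 with array weights, and ran from -0.12 to 0.26 with 1 array left out. Slc10a1 on 1450261_a_at was -0.061 with array weights and ran from -0.084 to 0.43. Nr5a2 on 1449707_at was -0.048 with array weights and ran from -0.24 to 0.48, and on 1420410_at it ran from -0.30 to 0.0060. The causes were not tested. Nr5a2 on 1449707_at has no value under the stricter filter. Cyp7a1, Cyp7b1, Cyp8b1, Nr0b2, Nr1h4, Abcb11 and Baat kept their direction under all alternatives run.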
